A study of Mus musculus with 12 samples.

Results

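The solute carriers are the main superfamily of membrane proteins that move amino acids, sugars, ions, vitamins and metabolites into cells and between their compartments. Their transcripts were described in female germline stem cells of the mouse (FGSCs), which are germ cells from the ovary that renew themselves in culture, in which Usp7, an enzyme that removes ubiquitin from proteins, was overexpressed or knocked down. A transcript was taken as a solute carrier where its gene symbol began with Slc, a family number, the letter a and a member number. The cystine carrier Slc7a11 was kept out of this set. The rule found 12 of the 648 transcripts in the overexpression table and 43 of the 3156 in the knockdown table. Of these, 11 stood in both tables, 1 in the overexpression table alone and 32 in the knockdown table alone, which made 44 transcripts of 44 genes among 3356 transcripts in all. The RefSeq annotation holds 354 genes that match the rule, so most of the superfamily was not analysed here.

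The 4 groups were FGSCs with Usp7 overexpression, their own control, FGSCs with Usp7 knockdown, and their own control, with 3 libraries in each. All cells carried the strain label C57BL/6. The sources used here do not give the vector or guide behind each construct, what the controls received, or whether the replicates were separate cultures. A p-value therefore measures the spread between the libraries alone, and that spread may be technical. The level of Usp7 itself, not analysed here, gave no check of the group labels. Values of the libraries of a group are given in the order of replicates 1 to 3.

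Solute carriers are grouped into families by sequence, and a family often shares a substrate type and a coupling ion. Plasma membrane carriers for amino acids, sugars and nucleosides set what a cell takes up, while the Slc25 family sits in the inner mitochondrial membrane and exchanges nucleotides, metabolites and cofactors with the cytosol. In the mouse ovary, the glycine carrier Slc6a9 is known for its part in the volume control of oocytes and early embryos, and several carriers, Slc26a8 and Slc22a16 among them, are best known from the testis and sperm.

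Each value is a normalized count, that is, the reads of a transcript divided by a size factor of its library, as the authors made it. Each table holds only transcripts that the authors' own test had selected on these same libraries. Nearly every transcript was therefore called here as well. In limma with Benjamini-Hochberg (BH) adjustment, 100% of the 613 overexpression transcripts tested and 99.9% of the 2902 knockdown transcripts tested had an adjusted p under 0.05, and a call on a solute carrier reads against these shares. A transcript was tested where at least 3 libraries held a normalized count of at least 10. Among those tested, all 3 libraries of a group lay beyond all 3 of the other for 100% in overexpression and 99.5% in knockdown. A carrier whose groups did not overlap also reads against these shares. Listed values summed to between 131157 and 155114 per library with overexpression, against 128056 to 139647 in its controls, and to between 5.38e6 and 5.52e6 with knockdown, against 3.01e6 to 3.22e6 in its controls. Scaling the knockdown libraries to equal sums, with or without the ribosomal RNA precursor Rn45s, was tried as an alternative, and results that moved with it are given with that value. Knockdown control replicate 2 stood apart. In it 143 transcripts lay more than 2 log2 units above both other controls, against 0 to 5 in any other library of the 12.

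The labelled cell type could be checked only in part, since the tables hold selected transcripts and the germ cell markers Ddx4 and Dazl were not analysed here. Among 16 germ cell markers, 2 were tested in overexpression and both rose (Mael, which protects germ cells from transposons, and Tex101, a germ cell surface protein), with summed values of 249 to 349 in overexpression libraries and 55.4 to 73.1 in their controls. In knockdown, 4 were tested and all 4 fell (Mael, Tex101, Foxo3 and Id4), and the 5 listed germ cell markers summed to 874 to 972 in knockdown libraries and 1766 to 1927 in their controls. Of 6 immune markers the tested Ptprc and Cd68 fell in knockdown, with sums of 140 to 171 in knockdown libraries and 384 to 432 in their controls. Of 11 fibroblast and feeder markers Col1a1 and Col1a2 fell, and Vim rose with the authors' scaling but held -0.17, not called, with equal totals. The size of both collagen falls rests in part on knockdown control replicate 2. Col1a2 held 158, 817 and 169 in the controls and 50.9, 42.1 and 61.0 in knockdown libraries. Col1a1 held 170, 735 and 185 in the controls and 43.7, 49.9 and 69.3 in knockdown libraries. The list summed to 6667 to 7791 in knockdown libraries and 4726 to 6014 in their controls. Most of these sums was Vim, and the highest control sum was that of replicate 2. Of 6 smooth muscle markers 2 fell and 1 was not called in knockdown. They summed to 400, 1296 and 361 in the controls and 178 to 213 in knockdown libraries. The epithelial marker Epcam fell in knockdown, and the theca marker Cyp17a1 fell in overexpression. No endothelial marker was tested. The endothelial markers Kdr and Cdh5 and, in knockdown, Cyp17a1 were listed but untested. They also peaked in knockdown control replicate 2 (25.1, 50.2 and 64.1). These directions read against all tested transcripts, of which 65.3% rose and 34.7% fell in overexpression, and 49.1% rose and 50.7% fell in knockdown. In bulk RNA, fewer cells of a type and less RNA per cell cannot be told apart. The part of these markers in the results that follow was not tested.

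Among the 11 solute carriers tested in overexpression, 8 rose and 3 fell, with a median log2 fold of 2.01, while 400 of all 613 transcripts tested (65.3%) rose and 213 (34.7%) fell, with a median of 1.31. The carriers' median was 0.87 with median-of-ratios scaling, 1.31 with TMM scaling and 0.58 over 6 carriers with a filter of 50. The 8 that rose were 2 orphan members of the neurotransmitter carrier family, a fructose carrier, 3 anion carriers and 2 carriers of organic ions. Of these, Slc47a2 held a log2 fold of 1.09 with the authors' scaling but -0.10 with median-of-ratios scaling and 0.36, not called, with TMM scaling. The 3 that fell were amino acid carriers. No mitochondrial carrier and no nucleotide sugar carrier was listed. The other scalings moved the median log2 fold of all tested transcripts by -1.20 (median of ratios), -0.74 (TMM) and -0.07 (equal totals). Apart from Slc47a2, all 10 other solute carriers kept their direction and their call under each of these scalings.

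The same 11 transcripts all fell in knockdown. Set side by side, 8 rose with overexpression and fell with knockdown, each against its own control, and 3 were lower in both. Among all 436 transcripts called in both tables, 318 (72.9%) rose with overexpression and fell with knockdown, 75 (17.2%) were lower in both, 36 (8.26%) were higher in both and 7 (1.61%) were lower in overexpression and higher in knockdown. The carriers thus fell into the 2 patterns that also held most of the other transcripts in both tables, and no test was made between the tables, which were normalized separately and have different controls.

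**Figure D1:**
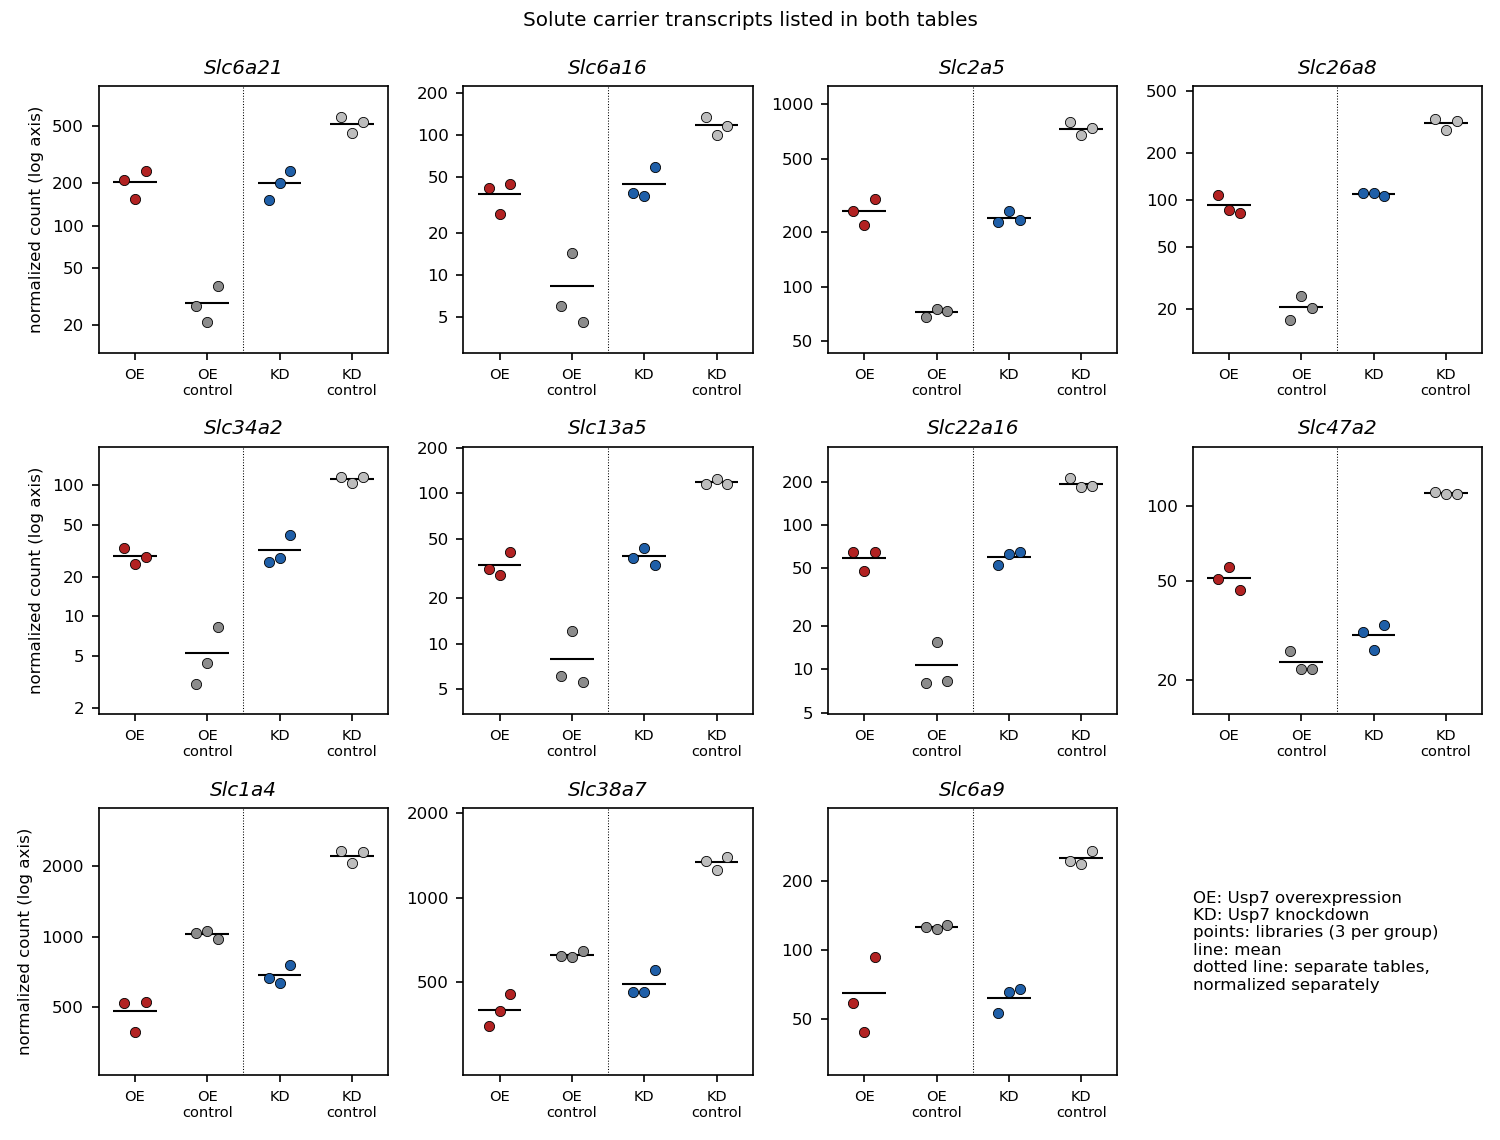
Normalized counts (log axes, each panel with its own range) of the 11 solute carrier transcripts listed in both tables, with 1 point per library, 3 libraries per group and a line at the group mean; overexpression (OE) and its control stand left of the dotted line, knockdown (KD) and its control right of it. In the 8 panels from Slc6a21 to Slc47a2 the overexpression points lie above their controls and the knockdown points below theirs, and in Slc1a4, Slc38a7 and Slc6a9 both lie below.

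Promoter sequence is shown for 4 of the carriers in both tables, the 3 with CACGTG in their windows and 1 of the 2 with TGATGNAA. All 11 carriers in both tables fell in knockdown, and windows of others among them also hold a motif that was searched for. In overexpression Slc38a7 and Slc1a4 fell and Slc6a16 and Slc22a16 rose. RefSeq (GRCm38.p6) gave a window from 250 bases before to 50 bases after the gene start for 34 of the 44 genes, and for all 11 in both tables. The E-box CACGTG, a palindrome bound by basic helix-loop-helix factors such as those of the Myc and Tfeb groups, stood in the windows of 3 of these 11 genes and of 7 of the 34, against 8.09% of all 27025 genes with a window. It began 34 bases before the start of Slc38a7 (minus strand), 40 before that of Slc6a16 (plus strand), and 63 and again 34 before that of Slc22a16 (plus strand). The 100 bases shown lie at chr8:95853510-95853609 for Slc38a7, with 18 bases between the last of them and its start. They lie at chr7:45240653-45240752 for Slc6a16 and at chr10:40570262-40570361 for Slc22a16. The E-box is in capitals, and each stretch is read 5′ to 3′ on the gene's strand. Starts are those of RefSeq. In GENCODE vM21 Slc6a16 begins at chr7:45241085, downstream of its stretch. GENCODE vM21 begins the first exon of Slc38a7 further upstream, so that 30 bases of its stretch, the E-box among them, lie in that exon, and 26 bases at the end of the Slc22a16 stretch, past both E-boxes, are exon there.
Slc38a7: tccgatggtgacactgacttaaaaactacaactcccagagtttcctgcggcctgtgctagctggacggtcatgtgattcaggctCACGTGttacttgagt
Slc6a16: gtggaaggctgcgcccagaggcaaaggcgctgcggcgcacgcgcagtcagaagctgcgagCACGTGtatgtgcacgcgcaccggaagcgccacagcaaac
Slc22a16: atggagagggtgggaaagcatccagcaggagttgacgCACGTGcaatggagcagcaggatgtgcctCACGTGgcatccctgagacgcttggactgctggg

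The amino acid response core TGATGNAA, the site of Atf4 paired with a C/EBP factor, was searched on both strands and stood in the windows of 2 of the 11 genes (Slc1a4 and Slc6a21) and of 4 of the 34, against 4.51% of all genes. The window of Slc6a21 that holds it (chr7:45282623-45282922) lies inside the GENCODE gene, which begins at 45277513. In Slc1a4 the core lies across the start on the opposite strand, with its first base 4 bases before the start. The 100 bases at chr11:20332710-20332809 (minus strand, GRCm38.p6), which run 4 bases past the start, show it in capitals at their end as TTGCATCA.
Slc1a4: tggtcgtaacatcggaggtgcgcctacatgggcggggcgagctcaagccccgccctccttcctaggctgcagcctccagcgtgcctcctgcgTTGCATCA

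The cAMP response element TGACGTCA, a palindrome, stood in 1 of the 34 windows, against 2.03% of all genes, and the GC box GGGCGG, on either strand, in 22, against 38.2%. By direction in knockdown, CACGTG stood in 1 of 9 genes that rose and 5 of 21 that fell. TGATGNAA stood in 0 of the 9 and 3 of the 21. No motif of the 4 contains another. A match of letters in a window is a description and not a measured site.

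The 3 amino acid carriers that fell in both comparisons differ in where they act. Slc1a4 carries small neutral amino acids such as alanine and serine across the plasma membrane. It held 523, 395 and 528 normalized counts in overexpression libraries, against 1038, 1056 and 979 in their controls (log2 fold -1.10 ± 0.15 SE, limma adjusted p = 6.02e-05, n = 3 per group). In knockdown libraries it held 669, 634 and 759, against 2309, 2055 and 2284 in their controls (-1.69 ± 0.10 SE, limma adjusted p = 6.64e-06). Every library of either construct lay below every library of its control. The groups were apart for 100% of all tested transcripts in overexpression and 99.5% in knockdown.

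Slc38a7, which exports glutamine from lysosomes, held 349, 392 and 453 normalized counts in overexpression libraries, against 619, 614 and 645 in their controls (log2 fold -0.66 ± 0.15 SE, limma adjusted p = 0.00117). Knockdown libraries held 459, 461 and 553, against 1354, 1258 and 1390 in their controls (-1.44 ± 0.11 SE, limma adjusted p = 1.33e-05). The groups did not overlap in either table, as for nearly all tested transcripts.

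Slc6a9, the glycine carrier, held 58.5, 43.7 and 93.7 normalized counts in overexpression libraries, against 127, 124 and 129 in their controls (log2 fold -1.01 ± 0.26 SE, limma adjusted p = 0.00259). In knockdown libraries it held 53.0, 65.5 and 67.9, against 246, 238 and 273 in their controls, which was the strongest decrease among the solute carriers tested in knockdown (-2.01 ± 0.14 SE, limma adjusted p = 1.09e-05). The overexpression libraries spread more widely (SD 25.7) than their controls (SD 2.23), yet none reached a control value. The listed transcript is 1 of 4 in RefSeq, and its exons overlap those of B4galt2 and Ccdc24 on the other strand. The sources used here do not say whether reads were counted by strand, so reads of these genes could not be told apart from it.

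Slc6a21 and Slc6a16, members of the family of neurotransmitter and amino acid carriers with no well-established substrate, are neighbours on chromosome 7. Slc6a16 lies at chr7:45241085-45273367 and Slc6a21 at chr7:45277513-45288998 (GRCm38, GENCODE vM21), both on the plus strand and 4146 bases apart. They are the only solute carriers of the 44 within 100000 bases of each other. Slc6a21 held 208, 154 and 240 normalized counts in overexpression libraries, against 27.2, 21.1 and 37.9 in their controls (log2 fold 2.78 ± 0.26 SE, limma adjusted p = 4.35e-06), the strongest rise among the solute carriers in that table. With knockdown it held 152, 199 and 242, against 578, 449 and 535 in their controls (-1.41 ± 0.18 SE, limma adjusted p = 0.000112). Slc6a16 held 41.6, 27.3 and 44.8 in overexpression libraries, against 6.04, 14.4 and 4.62 in their controls (2.17 ± 0.41 SE, limma adjusted p = 0.00042). Its knockdown libraries held 38.5, 36.6 and 59.6, against 135, 99.6 and 116 in their controls (-1.39 ± 0.21 SE, limma adjusted p = 0.000308). For both genes, as for nearly all tested transcripts, the groups were apart in either table.

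Among carriers of sugars, Slc2a5, the fructose carrier GLUT5, was the only one tested. It held 259, 217 and 303 normalized counts in overexpression libraries, against 68.4, 75.4 and 73.1 in their controls (log2 fold 1.82 ± 0.18 SE, limma adjusted p = 5.84e-06). In knockdown libraries it held 227, 258 and 231, against 793, 674 and 735 in their controls (-1.62 ± 0.11 SE, limma adjusted p = 9.97e-06). The groups were apart in both tables, as for nearly all tested transcripts. Slc5a4b, a member of the sodium and glucose carrier family, was listed for overexpression alone, with 1.30, 1.09 and 2.72 normalized counts in overexpression libraries and 13.1, 9.97 and 23.1 in their controls. It did not pass the filter on low values. Without the filter its log2 fold was -2.57 (limma adjusted p = 0.000144), and in the authors' deposited table it was -3.26. Slc5a4a is its close paralog, and reads shared between them could have been split by the counting. The glucose carriers of the Slc2 family other than Slc2a5 were not analysed here.

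A group of 3 anion carriers rose in overexpression and fell in knockdown. Slc26a8, an anion carrier of the sperm tail, held 108, 86.3 and 82.8 normalized counts in overexpression libraries, against 17.1, 24.4 and 20.3 in their controls (log2 fold 2.12 ± 0.25 SE, limma adjusted p = 1.72e-05). Its knockdown libraries held 110, 111 and 107, against 329, 281 and 318 in their controls (-1.49 ± 0.11 SE, limma adjusted p = 1.52e-05). The knockdown libraries had an SD of 2.46 counts, and the groups did not overlap, as for nearly all tested transcripts.

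Slc34a2, a sodium-coupled phosphate carrier, held 33.2, 25.1 and 28.5 normalized counts in overexpression libraries, against 3.02, 4.43 and 8.32 in their controls (log2 fold 2.34 ± 0.37 SE, limma adjusted p = 0.000137). Its knockdown libraries held 26, 28.1 and 41.6, against 115, 104 and 116 in their controls (-1.81 ± 0.20 SE, limma adjusted p = 6.25e-05). Slc13a5, which takes up citrate, held 31.2, 28.4 and 40.7 in overexpression libraries, against 6.04, 12.2 and 5.55 in their controls (2.01 ± 0.36 SE, limma adjusted p = 0.000276). Low counts in the overexpression controls of both genes make these rises the less precise ones, as their standard errors show. In knockdown libraries Slc13a5 held 37.4, 43.6 and 33.3, against 116, 125 and 115 in their controls (-1.62 ± 0.15 SE, limma adjusted p = 3.31e-05). The listed transcript is 1 of 3 in RefSeq, and its exons overlap a RIKEN transcript on the other strand.

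Slc22a16, a carnitine carrier known from the testis, held 65.0, 48.1 and 65.2 normalized counts in overexpression libraries, against 8.05, 15.5 and 8.32 in their controls (log2 fold 2.42 ± 0.32 SE, limma adjusted p = 4.3e-05). In knockdown libraries it held 53.0, 63.1 and 65.1, against 211, 183 and 186 in their controls (-1.66 ± 0.14 SE, limma adjusted p = 2.01e-05). Neither pair of groups overlapped, as for nearly all tested transcripts. Slc47a2, which exchanges organic cations for protons, held 50.7, 56.8 and 46.2 in overexpression libraries, against 26.2, 22.2 and 22.2 in their controls (1.09 ± 0.25 SE, limma adjusted p = 0.00125), a direction that turned with median-of-ratios scaling, as given above. Its knockdown libraries held 31.2, 26.5 and 33.3, against 114, 112 and 111 in their controls (-1.86 ± 0.15 SE, limma adjusted p = 1.95e-05).

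The levels of the 11 carriers were also set side by side across the tables, as description only. For the 8 that rose in overexpression and fell in knockdown, the mean in knockdown libraries was 0.592 to 1.18 times the mean in overexpression libraries (median 1.06), while the mean in knockdown controls was 4.77 to 21.3 times that in overexpression controls (median 15). For Slc1a4, Slc38a7 and Slc6a9 the same ratios were 0.951 to 1.43 for the constructs and 2.0 to 2.16 for the controls. All 11 had their highest group mean in the knockdown controls. Other transcripts listed in both tables showed the like. The construct ratio had a median of 1.04 over 427 transcripts and the control ratio a median of 9.23 over 440, each after a filter on low group means. Without that filter, 371 of 448 (82.8%) had their highest mean in the knockdown controls. The size factors came from separate normalizations, so part of any such ratio may be scaling, and this was not tested.

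In knockdown, 35 of the 43 listed solute carriers were tested and all 35 were called, with 13 that rose and 22 that fell, a median log2 fold of -0.87, and 99.9% of all tested transcripts called. Of all 2902 transcripts tested, 1426 (49.1%) rose and 1472 (50.7%) fell, with a median of -0.61. Amino acid and peptide carriers accounted for 8 of the decreases and 1 of the rises, with a median log2 fold of -1.39 over 9 tested. Mitochondrial carriers had 5 rises and 3 decreases (median 0.66 over 8, but -0.15 with totals of the listed values made equal). Ion and metal carriers had 3 rises and 6 decreases (median -0.77 over 9, but -1.50 over all 12 without the filter on low values). Carriers of other organic solutes had 3 rises and 4 decreases (median -1.53 over 7, but -0.48 over 6 with a filter of 50). The remaining rise was that of Slc2a4rg-ps, a pseudogene that the rule takes in. The 22 decreases kept their call under every scaling tried. The 13 rises did not. With equal totals the median of all tested transcripts moved by -0.81, and 1 of the 13, Slc29a2, was still called higher. With Rn45s left out of those totals, a choice made after seeing the data, the shift was -0.46 and 10 were. The shift was 0.30 with median of ratios, -0.07 with TMM and -0.12 with no library scaling, under which 13, 13 and 8 of the 13 were called higher.

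**Figure D2:**
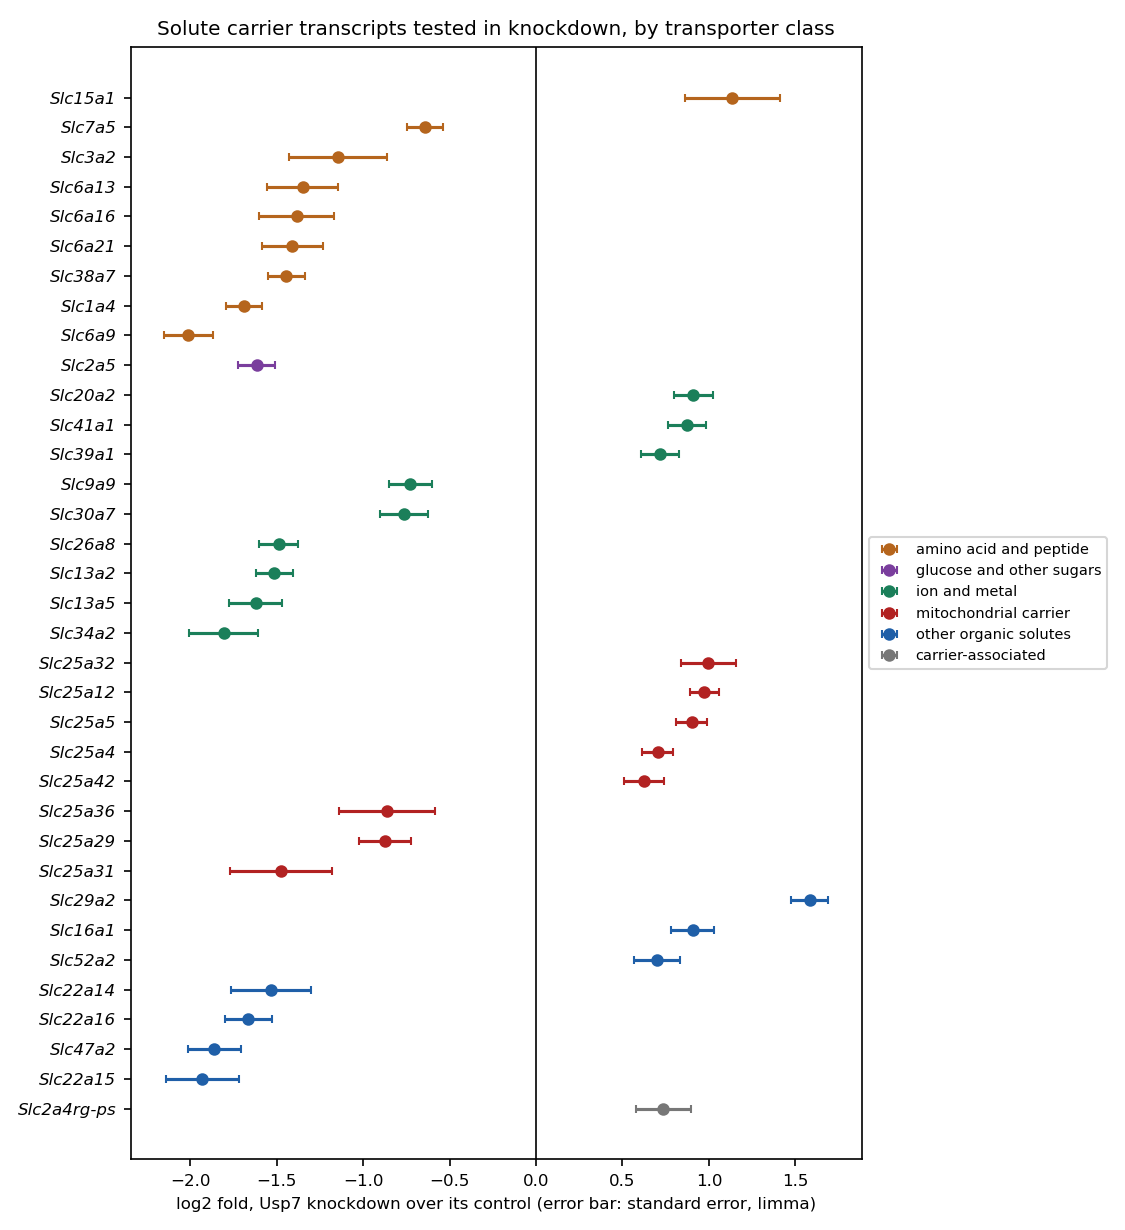
Log2 fold of Usp7 knockdown over its control for the 35 solute carrier transcripts tested, by transporter class and in order of fold within a class; points are limma estimates with the authors' scaling and bars are standard errors (n = 3 libraries per group). Amino acid carriers lie left of 0 except Slc15a1, and 5 of the 8 mitochondrial carriers lie right of 0, between 0.63 and 1.00.

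The amino acid carriers of the knockdown table included both subunits of the leucine exchanger. Slc7a5, its light chain, fell to 9452 ± 1094 normalized counts in knockdown libraries, against 14669 ± 487 in their controls (SD, n = 3 per group; log2 fold -0.64 ± 0.10 SE, limma adjusted p = 0.000401). Its heavy chain Slc3a2 held 13.5, 24.2 and 12.5 in knockdown libraries, against 31.9, 38.1 and 40.4 in their controls (-1.15 ± 0.28 SE, limma adjusted p = 0.00345). The listed Slc3a2 transcript is 1 of 2 in RefSeq and its low counts cannot stand for the gene. Slc6a13, a carrier of GABA and taurine, held 33.5 ± 7.66 in knockdown libraries and 86.0 ± 10.7 in their controls (SD; -1.35 ± 0.20 SE, limma adjusted p = 0.00027), on 1 of 3 RefSeq transcripts. The only rise in the class was that of Slc15a1, which takes up small peptides with protons. It held 33.3, 31.9 and 24.9 in knockdown libraries, against 10.6, 11.3 and 18.4 in their controls (1.14 ± 0.28 SE, limma adjusted p = 0.00333). With equal totals it was 0.37 and not called, and with Rn45s left out of the totals 0.69 and not called. Summed over the class, amino acid carriers reached 9920 to 12392 in knockdown libraries and 18547 to 19894 in their controls, most of it Slc7a5.

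Mitochondrial carriers gave the largest set of rises. Slc25a5 and Slc25a4 exchange ADP for ATP across the inner membrane. Slc25a5 held 4566, 4683 and 5070 normalized counts in knockdown libraries, against 2725, 2433 and 2512 in their controls (log2 fold 0.90 ± 0.09 SE, limma adjusted p = 3.95e-05). Slc25a4 held 3182, 3189 and 3597 in knockdown libraries, against 2105, 2028 and 1977 in their controls (0.70 ± 0.09 SE, limma adjusted p = 0.000112). Slc25a5 has many processed copies in the genome, and the counting could have split its reads. With equal totals the log2 fold of Slc25a5 was 0.09 and that of Slc25a4 -0.11, neither called.

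Slc25a12, which exchanges aspartate for glutamate, held 1988, 2021 and 1941 normalized counts in knockdown libraries, against 1048, 959 and 1028 in their controls (log2 fold 0.97 ± 0.08 SE, limma adjusted p = 2.32e-05). Slc25a32, a folate and FAD carrier, held 239, 171 and 172 in knockdown libraries, against 103, 97.0 and 87.0 in their controls (1.00 ± 0.16 SE, limma adjusted p = 0.000378). Slc25a42, a coenzyme A carrier, held 260, 274 and 320 in knockdown libraries, against 184, 184 and 182 in their controls (0.63 ± 0.12 SE, limma adjusted p = 0.00076). All 3 were apart from their controls in every library, as were 99.5% of all transcripts tested in knockdown. With equal totals Slc25a12 was 0.16, Slc25a32 0.19 and Slc25a42 -0.18, none of them called.

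The germ cell form of the ADP/ATP carrier, Slc25a31, went the other way. It held 23.9, 21.0 and 11.1 normalized counts in knockdown libraries, against 60.5, 43.3 and 51.4 in their controls (log2 fold -1.48 ± 0.30 SE, limma adjusted p = 0.00119). Slc25a29, a carrier of basic amino acids, held 129, 144 and 184 in knockdown libraries, against 292, 286 and 254 in their controls (-0.87 ± 0.15 SE, limma adjusted p = 0.000523). Slc25a36, a carrier of pyrimidine nucleotides, was the only tested solute carrier whose groups overlapped, with 163, 88.8 and 70.7 in knockdown libraries and 159, 197 and 198 in their controls (-0.86 ± 0.28 SE, limma adjusted p = 0.013). The overlap lay between knockdown replicate 1 and control replicate 1. With 1 library left out at a time, the log2 fold of Slc25a36 ranged from -1.21, without knockdown replicate 1, to -0.61. Over the 2902 tested transcripts the groups were apart for 99.5%. Summed per library, mitochondrial carriers reached 10551 to 11366 in knockdown libraries and 6227 to 6677 in their controls, most of it Slc25a5 and Slc25a4. The sums of all listed values were also higher in knockdown libraries (5.38e6 to 5.52e6) than in their controls (3.01e6 to 3.22e6). With equal totals the median log2 fold of the class was -0.15.

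Among the 3 ion and metal carriers that rose, Slc20a2, a phosphate carrier, held 302, 355 and 355 normalized counts in knockdown libraries, against 186, 170 and 180 in their controls (log2 fold 0.91 ± 0.11 SE, limma adjusted p = 0.000106). Its exons overlap those of Smim19 on the other strand. Slc41a1, a magnesium carrier, held 662, 700 and 780 in knockdown libraries, against 398, 419 and 350 in their controls (0.87 ± 0.11 SE, limma adjusted p = 0.000115). The zinc importer Slc39a1 held 663, 665 and 791 in knockdown libraries, against 427, 456 and 402 in their controls (0.72 ± 0.11 SE, limma adjusted p = 0.000277). None of the 3 was called with equal totals (0.10, 0.065 and -0.093). With Rn45s left out of the totals all 3 were.

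Among those that fell, Slc13a2, which takes up dicarboxylates such as succinate, held 163, 164 and 187 normalized counts in knockdown libraries, against 518, 464 and 491 in their controls (log2 fold -1.51 ± 0.11 SE, limma adjusted p = 1.17e-05), and its exons overlap those of Slc13a2os on the other strand. Slc30a7, which moves zinc into the Golgi, held 260, 199 and 184 in knockdown libraries, against 368, 358 and 359 in their controls (-0.77 ± 0.14 SE, limma adjusted p = 0.000696). Slc9a9, a sodium and proton exchanger of endosomes, held 79.0 ± 2.81 in knockdown libraries and 131 ± 7.23 in their controls (SD; -0.73 ± 0.12 SE, limma adjusted p = 0.000479). Phosphate carriers thus stood on both sides, with Slc20a2 higher and Slc34a2 lower, and so did zinc carriers, with Slc39a1 higher and Slc30a7 lower with the authors' scaling, while with equal totals Slc20a2 and Slc39a1 were not called and Slc39a1 turned to -0.093.

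The strongest rise of a solute carrier in knockdown was that of Slc29a2, which lets nucleosides cross the plasma membrane. It held 664, 687 and 797 normalized counts in knockdown libraries, against 239, 226 and 249 in their controls (log2 fold 1.58 ± 0.11 SE, limma adjusted p = 1.02e-05). Under the other scalings it ranged from 0.77 with equal totals to 1.89 with median of ratios and was called under each. Slc16a1, a lactate and pyruvate carrier, held 1831, 1604 and 1315 in knockdown libraries, against 863, 808 and 841 in their controls (0.91 ± 0.13 SE, limma adjusted p = 0.00017). Slc52a2, a riboflavin carrier, held 678, 722 and 910 in knockdown libraries, against 501, 428 and 485 in their controls (0.70 ± 0.13 SE, limma adjusted p = 0.000821). With equal totals Slc16a1 was 0.09 and Slc52a2 -0.11, neither called.

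The 4 decreases among carriers of other organic solutes were those of Slc22a16, Slc47a2, Slc22a15 and Slc22a14. Slc22a15 is an organic ion carrier, with 16.0 ± 2.46 normalized counts in knockdown libraries and 64.0 ± 9.95 in their controls (SD; log2 fold -1.93 ± 0.21 SE, limma adjusted p = 6.11e-05). Slc22a14, known from mouse sperm, had 15.8 ± 3.47 in knockdown libraries and 47.2 ± 6.89 in their controls (SD; -1.53 ± 0.23 SE, limma adjusted p = 0.000275). Slc2a4rg-ps matches the rule by its symbol but is a transcribed pseudogene and no carrier. It held 95.6, 91.2 and 101 in knockdown libraries, against 57.2, 48.5 and 67.4 in their controls (0.74 ± 0.16 SE, limma adjusted p = 0.00183), and was -0.065 with equal totals.

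The other 8 solute carriers of the knockdown table had too few counts to be tested, and all were lower in knockdown in the authors' deposited table. They included the anion carrier Slc26a11, the amino acid carriers Slc38a5, Slc6a7 (proline) and Slc7a7 (basic amino acids), the magnesium carrier Slc41a2 and the nucleobase carrier Slc43a3, which is counted with the amino acid carriers by its family. In knockdown libraries none of the 8 exceeded 6.23 normalized counts. For Slc38a5 and Slc43a3 the control mean rested on knockdown control replicate 2. Slc38a5 held 4.16, 6.23 and 1.39 in knockdown libraries, against 8.99, 110 and 6.12 in their controls. Slc43a3 held 0, 2.34 and 1.39 in knockdown libraries, against 1.63, 39 and 7.35 in their controls. Both also overlapped between the groups. Of all 43 listed carriers 40 did not overlap, against 3106 of all 3156 listed transcripts, so this count reflects the selection of the table. Tested without the filter, 6 of the 8 were called lower, and Slc38a5 (limma adjusted p = 0.0571) and Slc43a3 (limma adjusted p = 0.0539) were not. The exons of Slc7a7 overlap those of Oxa1l on the other strand.

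**Figure D3:**
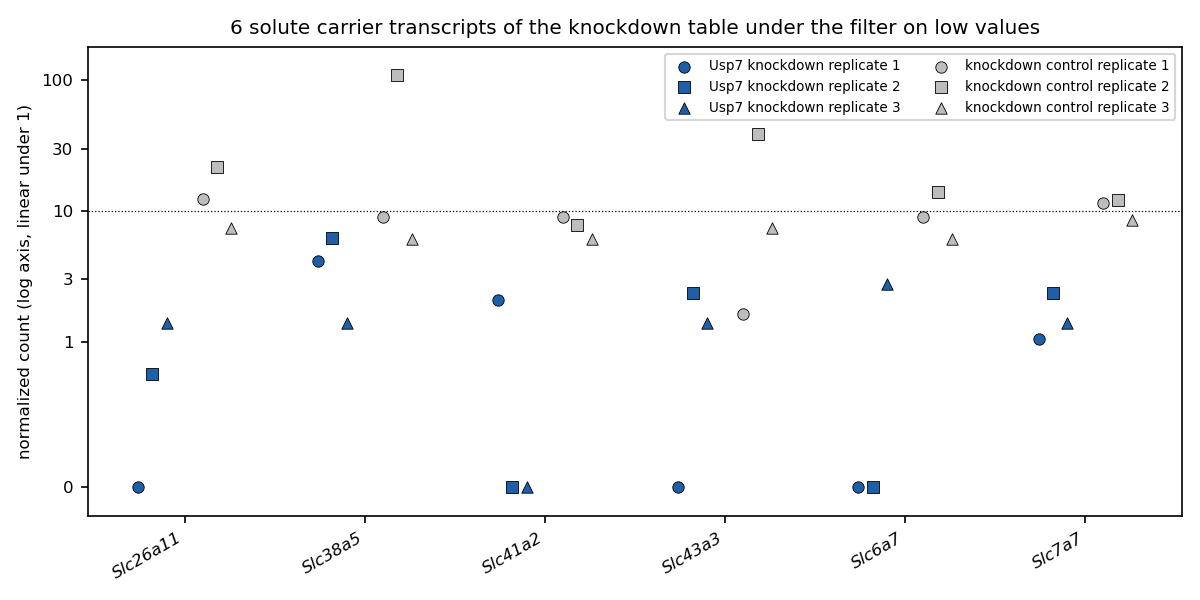
Normalized counts (log axis, linear under 1) of 6 solute carrier transcripts of the knockdown table under the filter of 10 (dotted line), with 1 point per library and replicates 1 to 3 as circles, squares and triangles. The grey squares of control replicate 2 stand far above the other controls in Slc38a5 (110) and Slc43a3 (39).

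To compare levels between genes, means were divided by transcript length and are normalized counts per kilobase (kb) of transcript. In the knockdown table Slc25a5 was the highest carrier in knockdown libraries (3849 per kb, against 2062 in their controls) and Slc7a5 the highest in the controls (2687 per kb in knockdown libraries, against 4171 in their controls). Slc25a4 followed with 1726 per kb in knockdown libraries and 1058 in their controls. These 3 stood well above all others. Slc1a4, the next in the controls, had 175 per kb in knockdown libraries and 564 in their controls, and Slc38a7 had 147 in knockdown libraries and 400 in their controls. Slc16a1 had 358 per kb in knockdown libraries and 189 in their controls, Slc25a12 had 312 in knockdown libraries and 159 in their controls, and Slc29a2 had 273 in knockdown libraries and 90.8 in their controls. In the overexpression table Slc1a4 and Slc38a7 were the highest per kb in overexpression libraries (123 and 120) and in their controls (261 and 188), while Slc6a21, at 116 per kb in overexpression libraries, had 16.6 in their controls.

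**Figure D4:**
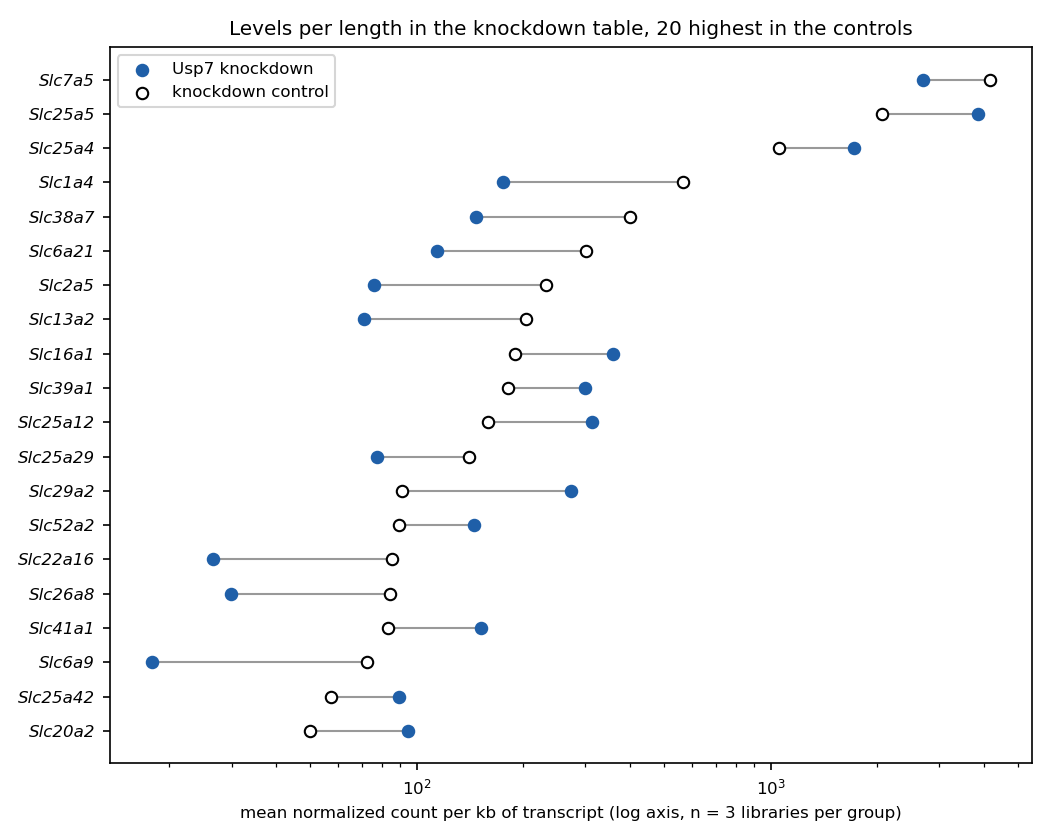
Mean normalized count per kb of transcript (log axis) of the 20 solute carriers with the highest level in the knockdown controls, with filled points for Usp7 knockdown, open points for its control and n = 3 libraries per group. Slc7a5 is highest in the controls (4171) and Slc25a5 in knockdown (3849), and the carriers from Slc1a4 down to Slc13a2 all lie lower in knockdown.

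Genes that act with these carriers were counted from lists of the pathways. Of 25 genes of the amino acid response and of amino acid synthesis, 8 were tested in overexpression and all 8 fell (median log2 fold -1.43), among them the glutathione-degrading enzyme Chac1 (-3.36), the pseudokinase Trib3 (-2.84), the mTORC1 inhibitor Ddit4 (-1.87) and Slc7a11 (-1.61). In knockdown 12 were tested, of which 11 fell and 1 rose (median -1.44). The strongest decreases were those of the stress protein Nupr1 (-5.00), Trib3 (-4.61), Chac1 (-4.06) and the stress-induced factor Ddit3 (-2.88). The rise was that of Shmt1, which makes glycine from serine (0.81, but 0.0031 and not called with equal totals), named after its value was seen. With median of ratios or no library scaling 10 were called lower, since Pycr1, a proline synthesis enzyme also named after its values were seen, was not called. The amino acid carriers Slc1a4, Slc38a7 and Slc6a9 fell in both comparisons, as most of this list did. Slc6a21 (2.78) and Slc6a16 (2.17), counted in the same class of carriers, rose in overexpression. Whether the carriers and the list share a regulator was not tested. The share of the list that fell reads against 34.7% of all tested transcripts in overexpression and 50.7% in knockdown.

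Of 17 genes through which mTORC1 senses amino acids, the leucine sensor Sesn2 alone was tested in overexpression and fell (log2 fold -0.87). In knockdown Sesn2 (-0.90), Sesn3 (-0.94) and Fnip1 (-0.84) fell and the arginine sensor Castor1 rose (0.85, but 0.038 and not called with equal totals). Of 23 genes of glucose use none was listed for overexpression. In knockdown the glycolytic enzymes Pgk1 (0.77) and Pgam1 (0.99) and the pyruvate dehydrogenase kinase Pdk1 (1.04) rose with the authors' scaling, while with equal totals they were -0.042, 0.18 and 0.26 and none was called. Pdk2, another such kinase, fell (-1.84). Of 227 annotated genes of other membrane transport, 8 were tested in overexpression, of which 5 rose, among them the ABC transporters Abcc12 (2.71), Abca14 (2.46) and Abca17 (2.33). With median-of-ratios or TMM scaling these 3 alone were called higher, and with median of ratios Atp6v0e, a proton pump subunit that rose with the authors' scaling, turned to -0.51 and was called lower. It is named after its values were seen. The 3 that fell were the sodium pump subunit Atp1a4 (-3.20) and, named after their values were seen, Abca4 and Kcnq1ot1, the last a noncoding RNA that the symbol pattern takes in. In knockdown 24 were tested, 11 rose and 13 fell, with the potassium channel Kcnj14 (2.56) highest and Abca5 (-2.12), the channel subunit Kcng1 (-2.06) and the organic anion carrier Slco3a1 (-1.78) lowest. With equal totals 2 of the 24, Kcnj14 and, named after its values were seen, Kcnh4, were called higher and the 13 decreases were called as before. With the authors' scaling 65.3% of all tested transcripts rose in overexpression, and 49.1% rose and 50.7% fell in knockdown. The counts of these lists read against those shares.

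Leaving out each library in turn changed neither the call nor the direction of any of the 11 solute carriers tested in overexpression or the 35 tested in knockdown. All had been selected by the authors' test on these same libraries. With every library in, 100% of all tested transcripts were called in overexpression and 99.9% in knockdown. Keeping a call is therefore no separate support, and the share of all transcripts that kept theirs is not given here. The adjusted p came closest to the threshold for Slc25a36, at 0.0488 (limma with BH adjustment). Without knockdown control replicate 2, the library that stood apart, 13 of the listed transcripts, the pseudogene Slc2a4rg-ps among them, rose and 22 fell as before, with a median log2 fold of -0.85.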

How the data were processed

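RNA libraries (Illumina TruSeq, total RNA extracted with Trizol, per the labels) came from FGSCs in 4 groups of 3, grouped by sample title. Bowtie 0.12.2 and the builds mm10 and GRCm38 are named, per the submitters' processing notes. The sources used here give neither the counter nor the authors' test. The deposited library columns hold a signal, normalized counts that the authors made by dividing reads by size factors (0.722 to 1.54 from the value steps). The authors also deposited a log2 fold and its error (log2 scale), a test score, and a p-value with its adjusted form. All values used were mapped to samples. Total depth is unknown because the tables are selections. Whole reads (tolerance 0.001) were recovered for 10 of 12 columns.

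Each construct was fitted alone against its control with limma 3.58.1 (R 4.3.3) with a variance trend. Values were taken as scaled by the authors and a pseudocount of 1 was added before log2. Transcripts needed a value of 10 or more in 3 or more libraries, and BH adjustment ran over the whole table. Fold changes are on that scale, which understates those of low genes. The fit was tested on simulated data. edgeR 4.0.16 and DESeq2 1.42.0 were alternatives on recovered reads, for knockdown alone. The other alternatives covered scaling, filters, pseudocounts (0.5 and 5), the variance trend, the replicate block and single libraries. Chi-square per transcript between replicates was 1.80 to 33.8, and no library was treated as a duplicate. Gene positions are from GENCODE vM21 and promoters from RefSeq.

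The members and lists were chosen with earlier results of these data known. Values of each library are given for carriers in both tables and, in knockdown, for up to 5 per class and direction with the largest folds, a mean of at least 50 and no overlap, with others added after their values were seen. Partner genes are named up to 4 per list and table by size of fold, and any beyond these are said to be named after their values were seen. Of the listed carriers, 2 are counted but not reported here by name.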

Additional observations from a re-analysis of the deposited data

How the results depend on the processing

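In overexpression 8 carriers were called higher and 3 lower with equal totals, other pseudocounts, no trend, and without each library in turn (range 8 to 8 and 3 to 3). With median-of-ratios or TMM scaling 7 were higher, since Slc47a2 was -0.10 or 0.36, uncalled. With a filter of 50 only 6 could be tested and 3 were higher. In knockdown 13 were higher and 22 lower with median of ratios, TMM, edgeR, DESeq2, and without each library in turn (13 to 13 and 22 to 22). With equal totals 1 was higher (4.35% of 23 calls, against 37.1%) and with no library scaling 8 (26.7% of 30 calls), while 22 stayed lower. With equal totals Slc2a4rg-ps was -0.065, Slc39a1 -0.093, Slc25a4 -0.11, Slc52a2 -0.11, Slc25a42 -0.18 and the mitochondrial median -0.15, against a shift of all transcripts of -0.81. With Rn45s left out, a choice made after seeing the data like TMM, 10 were higher, with Slc2a4rg-ps (0.28), Slc25a42 (0.16) and Slc15a1 (0.69) uncalled. The cause was not tested.

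Same-numbered libraries did not deviate together (correlations -0.11 to 0.05 in overexpression, -0.10 to -0.02 in knockdown). With 3 libraries per group and selected transcripts, these correlations cannot tell whether same-numbered libraries share a culture or batch. A fit with the replicate block gave 8 higher and 3 lower in overexpression and 13 and 22 in knockdown. No scaling, edgeR and DESeq2 were not run for overexpression, where 2 columns lacked recovered reads. Selection by the authors' test, unknown total depth and 3 libraries per group limit every value.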
